A study of Mus musculus with 17 samples.

Results

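The genes described here are 38 genes of fatty acid oxidation and ketogenesis, chosen by name as a pathway. The choice was made with earlier results of these data known. The genes were followed by gene symbol in 2 materials, liver tissue and isolated hepatocytes of mice. All 38 were found among the 49315 genes of the liver tables and among the 15632 genes listed in at least 1 hepatocyte file. The RNA sequencing study addressed the sphingomyelin synthase family: Samd8 encodes SMSr, a ceramide phosphoethanolamine synthase, and Sgms1 and Sgms2 encode the sphingomyelin synthases SMS1 and SMS2. Liver came from 4 wild-type (WT) and 4 SMSr-knockout (SMSrKO) samples, and in both groups the animals received a high-fat diet together with fructose in the drinking water over 16 weeks. Their age, strain and alleles are not given here. Hepatocytes came from mice aged 2 months on no stated diet, in 3 samples each of WT, of Sms1/Sms2-dKO (both sphingomyelin synthases, here dKO) and of Sms1/Sms2/Smsr-tKO (all 3 enzymes, here tKO), after digestion of the liver with collagenase in 2 steps. The labels state neither the promoter or cells in which a gene was deleted nor separate animals for each library, and the spread behind each p-value may therefore be only technical.

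Fatty acids are activated to acyl-CoA, carried into mitochondria on carnitine, and shortened by repeated cycles of dehydrogenation, hydration, a second dehydrogenation and thiolysis, while peroxisomes shorten the longest chains and cytochromes of the Cyp4a family oxidise the far end of the chain. In the fasting liver the acetyl-CoA that results is turned into ketone bodies. The nuclear receptor PPARα, encoded by Ppara, is the best known activator of these genes in liver and is itself activated by fatty acids.

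The 2 experiments differed in depth and in spread. Each liver library had 24391627 to 47351126 counts, each hepatocyte library 9221488 to 9665309 expected counts. Biological variation, as edgeR's common coefficient, came to 20.3% among liver libraries and to 3.52% among hepatocyte libraries, where replicates of a group lay close to counting noise. Among the targeted genes, Samd8 stood no lower where the label says it is knocked out, at 54.2 ± 3.67 CPM (counts scaled by the TMM-adjusted library total; SD, n = 4) in liver labelled SMSrKO against 42.6 ± 6.38 in WT, and at 101 ± 2.94 CPM in hepatocytes labelled tKO against 69.7 ± 3.57 in WT (n = 3 each). Sgms1 stood at 49.7 ± 3.34, 90.5 ± 5.55 and 58.7 ± 3.31 CPM in WT, dKO and tKO hepatocytes, and Sgms2 at 183 ± 7.69, 150 ± 15.8 and 150 ± 7.12. Counts over whole genes cannot show the loss of part of a gene, so these levels did not check the labels, and all groups are called by their labels. The extract protocol of the liver experiment names sWAT, a fat depot, but the liver libraries held 1068303 to 2199752 counts of albumin (Alb), 0 to 3 of the adipocyte gene Adipoq and 0 of Lep.

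Promoter sequence was examined for the element that PPARα binds with its partner RXR, called DR1 because it repeats the letters AGGTCA after a spacer of 1 base of any kind. It was searched on both strands over the 250 bases before each start. Of the 38 members, 32 had a promoter in the RefSeq table (GRCm38.p6). None of the 32 held the full element, and 0.0407% of 27025 genes did. With up to 2 mismatches over the 12 fixed bases it was found in 3 members, or 9.38%, against 3.72% of all genes, and with up to 3 in 8 members, or 25%, against 23.7%. The 3 stretches with up to 2 mismatches are shown because they are the nearest matches among the members. Capitals mark the 13 bases compared with the element, spacer and mismatches included. For Acot4 and Etfa the element was matched on the opposite strand, as its reverse complement. The stretches are each written 5′ to 3′ on the strand of the gene, with up to 20 bases on either side of the capitals. They lie at chr12:84038346-84038378 on the plus strand for the thioesterase gene Acot4, chr10:81092768-81092820 on the minus strand for the transcription factor gene Creb3l3, and chr9:55512288-55512340 on the minus strand for Etfa, a subunit of electron transfer flavoprotein.
Acot4: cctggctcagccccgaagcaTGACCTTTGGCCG
Creb3l3: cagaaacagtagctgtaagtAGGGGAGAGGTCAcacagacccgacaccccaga
Etfa: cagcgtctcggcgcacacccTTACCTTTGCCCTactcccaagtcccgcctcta
A match is a description of these letters, and elements farther from the start would not be seen in this window.

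Members spanned a wide range of levels in both materials, compared here per length. In liver, the peroxisomal thiolase Acaa1b had the highest level, at 3449 TPM (transcript share scaled by gene length) as the mean over 8 libraries, followed by the omega-hydroxylases Cyp4a14 at 2932 TPM and Cyp4a10 at 2366 TPM, the mitochondrial thiolase Acaa2 at 1224 TPM and the peroxisomal bifunctional enzyme Ehhadh at 1017 TPM. The lowest were Pdk4 at 28.1 TPM, Fgf21 at 16.6 TPM and Ppargc1a at 5.65 TPM, all 3 of them regulatory genes. In hepatocytes, as the mean over 9 libraries, Acaa2 led at 174 FPKM (fragments scaled by gene length and library total), followed by Cyp4a14 at 108 FPKM, Cyp4a10 at 106 FPKM and the medium-chain dehydrogenase Acadm at 87.0 FPKM. Ppara stood there at 1.60 FPKM, Ppargc1a at 1.09 FPKM and Fgf21 at 0.75 FPKM. The neighbours Cyp4a14 and Cyp4a10 in the liver order were not apart beyond their spread, at 2036 ± 542 and 1644 ± 629 TPM in WT (SD, n = 4). The liver and hepatocyte tables were normalised separately and came from separate experiments, so no level was compared between them.

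The first comparison asked what loss of SMSr did to these genes in liver under the diet. In libraries labelled SMSrKO the omega-hydroxylases Cyp4a10 and Cyp4a14 stood about as far above WT as each other, and most of the other members stood slightly above WT, fewer of them without WT 1. None passed the test. No member passed edgeR's quasi-likelihood test at an adjusted p of 0.05, 0 of 38, where 0.234% of all 15820 tested genes did. An unadjusted edgeR p under 0.05 was reached by 5 of 38 members and by 2075 of all 15820 tested genes, nearly the same share. DESeq2 called 2 members higher, Cyp4a10 and Cyp4a14, and 2.96% of all genes, with 1.48% of all genes called higher. The median log2 fold change over the members was 0.20, against −0.01 over all genes. Above 0 stood 34 of 38 members, and 24 of 38 without WT 1, where 7565 of all 15820 tested genes did with every library included.

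The 2 omega-hydroxylases lie 22.1 kb apart on chromosome 4 (GRCm38), Cyp4a14 from 115486200 to 115496142 and Cyp4a10 from 115518264 to 115533649. Cyp4a14 measured 1603, 2843, 2628 and 2314 CPM in WT 1 to WT 4, and 3864, 4010, 6467 and 4066 CPM in SMSrKO 5 to SMSrKO 8. Every SMSrKO library lay above every WT library, WT 1 was the lowest and SMSrKO 7 the highest of all. Its log2 fold change was 0.97 ± 0.226 (SE; edgeR adjusted p = 0.125, and 0.00144 in DESeq2). Cyp4a10 measured 773, 1901, 2019 and 1446 CPM in WT and 2788, 2746, 3886 and 2641 CPM in SMSrKO. These groups did not overlap either, with the same libraries at the extremes. Its log2 fold change was 0.98 ± 0.278 (edgeR adjusted p = 0.192, and 0.0159 in DESeq2). Cyp4a10 has near-identical copies, so its own value is uncertain, but the sum of Cyp4a10, Cyp4a31 and Cyp4a32 kept the pattern, at 823 to 2082 CPM in WT and 2717 to 3980 CPM in SMSrKO. Both genes are also expressed more in females than in males. Of 16 female-biased genes, 3 of them members, 0 were called (median 0.12). Male-biased genes summed to 483 to 692 CPM in WT and 378 to 481 CPM in SMSrKO, with 0 of 12 tested called (median −0.265). The 15 hepatocyte markers summed to 75887 to 93523 CPM in WT and 101099 to 117464 CPM in SMSrKO, with 0 called. The part of these lists in the Cyp4a values was not tested.

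All 3 transcriptional regulators had positive fold changes, and none passed the test. Ppara (chromosome 15, 85734983 to 85802819) measured 183, 280, 296 and 251 CPM in WT and 341, 274, 301 and 297 CPM in SMSrKO. The groups overlapped, with WT 1 lowest, and the log2 fold change was 0.26 ± 0.149 (edgeR adjusted p = 0.485). Ppargc1a, which encodes the coactivator PGC-1α of PPARα and of mitochondrial genes, measured 16.8, 13.8, 14.3 and 12.4 CPM in WT and 15.4, 27.6, 15.5 and 20.1 CPM in SMSrKO. SMSrKO 6 stood highest, and WT 1 lay above 2 SMSrKO libraries (log2 fold change 0.46 ± 0.188, edgeR adjusted p = 0.342). Creb3l3, which encodes the transcription factor CREBH that acts beside PPARα, gave 0.29 ± 0.141.

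Of the fasting signals, Pdk4, whose kinase shuts off pyruvate dehydrogenase and so spares glucose, had the lowest fold change of all members. It measured 7.09, 112, 63.6 and 87.9 CPM in WT and 11.6, 10.9, 23.5 and 30.6 CPM in SMSrKO. WT 2, WT 3 and WT 4 lay above all SMSrKO libraries and WT 1 below all of them, and the log2 fold change was −1.81 ± 0.741 (edgeR adjusted p = 0.361). The hormone gene Fgf21 measured 0.689, 5.60, 5.64 and 13.0 CPM in WT and 7.17, 3.10, 13.96 and 7.65 CPM in SMSrKO, with overlap (log2 fold change 0.37 ± 0.752, edgeR adjusted p = 0.865). Vnn1, a pantetheinase known as a PPARα target, gave 0.04 ± 0.384.

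Genes of mitochondrial entry were overlapping throughout. Cpt1a, the rate-controlling carnitine palmitoyltransferase of the outer membrane, measured 484, 831, 994 and 852 CPM in WT and 971, 858, 952 and 739 CPM in SMSrKO. Apart from the low WT 1 library the groups lay in the same range (log2 fold change 0.15 ± 0.203, edgeR adjusted p = 0.778). The acyl-CoA synthetase Acsl1, the carnitine carrier Slc25a20 and the inner transferase Cpt2 gave 0.41, 0.13 and 0.16. Of the 8 enzymes of the mitochondrial cycle, all had positive fold changes, from 0.03 for the short-chain dehydrogenase Acads to 0.31 for Acadm. The long-chain dehydrogenase Acadl was the third member whose groups did not overlap, at 238, 320, 346 and 304 CPM in WT and 388, 355, 376 and 348 CPM in SMSrKO. That gap between WT 3 and SMSrKO 8 was narrow, and the log2 fold change was 0.28 ± 0.124 (edgeR adjusted p = 0.373). The 3 members without overlap, all higher, compare with 3.79% of all genes higher without overlap, and 0 members were lower without overlap against 4.32% of all genes.

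Subunits of electron transfer flavoprotein and its dehydrogenase gave 0.16 (Etfa), 0.19 (Etfb) and 0.29 (Etfdh), and the 5 enzymes for unsaturated chains gave 0.02 (Ech1) to 0.33 (Eci2). Peroxisomal genes ranged from −0.24 for Pex11a, a peroxisome division factor, to 0.36 for Ehhadh. Acyl-CoA thioesterases, which release free fatty acids from CoA, gave −0.07 (Acot2), 0.33 (Acot4), 0.53 (Acot1) and 0.76 (Acot3). These 4 genes lie in a row on chromosome 12 and are similar in sequence, so single values are uncertain. Their sum was 167 to 945 CPM in WT and 868 to 1092 CPM in SMSrKO. The ketone body enzyme Bdh1 gave 0.09 ± 0.21.

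Of 64 other genes of fatty acid oxidation and ketogenesis that were tested in liver, 0 were called (median log2 fold change 0.07), and of 44 other PPARα targets and partners, 0 were called (median 0.08).

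**Figure D1:**
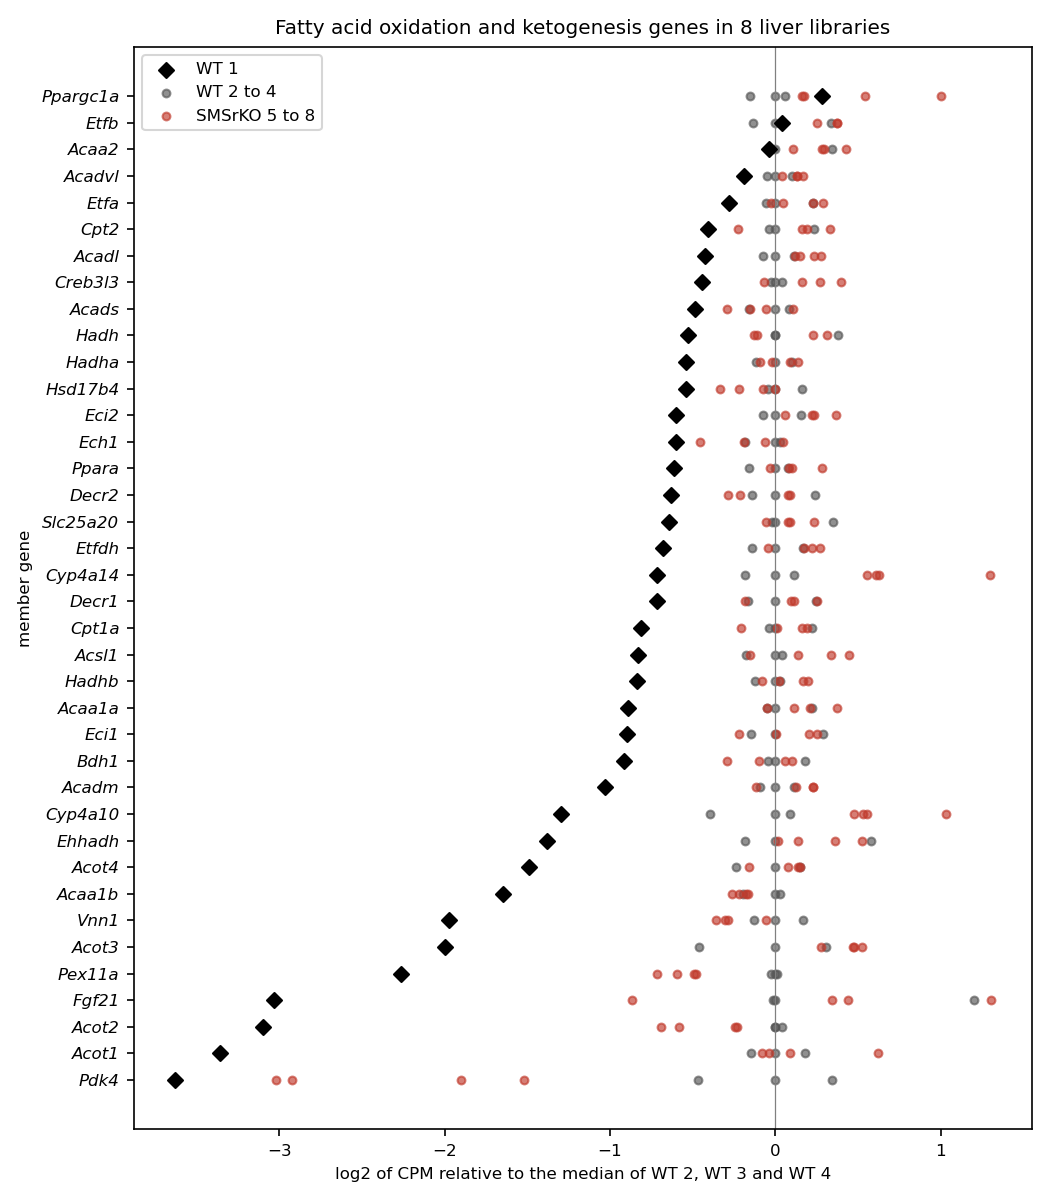
Each row is a member gene and each point a liver library, placed by the log2 of its CPM relative to the median of WT 2, WT 3 and WT 4, with WT 1 as black diamonds, the other WT libraries in grey and the SMSrKO libraries in red. WT 1 is the lowest of the 8 libraries for 36 of the 38 genes, and the SMSrKO points of Cyp4a10 and Cyp4a14 lie to the right of all WT points.

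The library WT 1 held less of nearly the whole gene set than any other liver library. It was the lowest of the 8 libraries for 36 of 38 members, or 94.7%, against 20.5% of all tested genes, and the exceptions were Etfb and Ppargc1a. The median ratio of WT 1 to the median of the other WT libraries was 0.609 over the members and 1.01 over all genes. In 12 members the ratio was at or under 0.5, which held for 4.79% of all genes. Pdk4 was at 8.06% of the level of the other WT libraries, Acot1 at 9.76%, Acot2 at 11.7%, Fgf21 at 12.2% and Pex11a at 20.8%. Enzymes of the mitochondrial cycle deviated less, with Acadm at 49.1%, Hadha at 68.7%, Acadvl at 87.7% and Acaa2 at 97.3%.

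Other lists placed this library apart as well. Acute phase genes, a hepatocyte response to inflammation, summed to 53868 CPM in WT 1, to 21344 to 24209 CPM in the other WT libraries and to 21378 to 25339 CPM in SMSrKO, and all 17 were highest in WT 1. The genes of the fasting and insulin response summed to 11260 CPM in WT 1 and to 4457 to 7721 CPM in the other 7 libraries. Hepatocyte markers were lowest in WT 1 in 2 of 15 genes, and their sum there, 93523 CPM, was the highest of the WT libraries. Of the other oxidation and ketogenesis genes, 30 of 64, or 46.9%, were lowest in WT 1, and of the other PPARα targets and partners 20 of 44, or 45.5%. The part of these lists in the low member values of WT 1 was not tested.

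Without WT 1 the liver comparison gave other values. The median log2 fold change of the members fell from 0.20 to 0.07, and 24 of 38 members stood above 0. Pex11a (chromosome 7, 79735957 to 79743131) then passed the test as the only member, at −0.56 ± 0.0861 (edgeR adjusted p = 0.0215), where 0.682% of all genes were called, 0.263% higher and 0.419% lower. Its levels were 63.0 CPM in WT 1, 303, 305 and 297 CPM in WT 2 to WT 4, and 184, 217, 216 and 200 CPM in SMSrKO. The SMSrKO libraries lay between WT 1 and the other WT libraries. Pdk4 was then at −2.18 ± 0.413 (edgeR adjusted p = 0.0807), Cyp4a10 at 0.75 ± 0.172 (0.0888), Cyp4a14 at 0.82 ± 0.191 (0.0927) and Acot2 at −0.43 ± 0.121 (0.142). Without overlap were 4 members higher, Cyp4a10, Cyp4a14, Acadl and Ppargc1a, against 6.27% of all genes, and 3 lower, Pdk4, Pex11a and Acot2, against 7.26%.

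**Figure D2:**
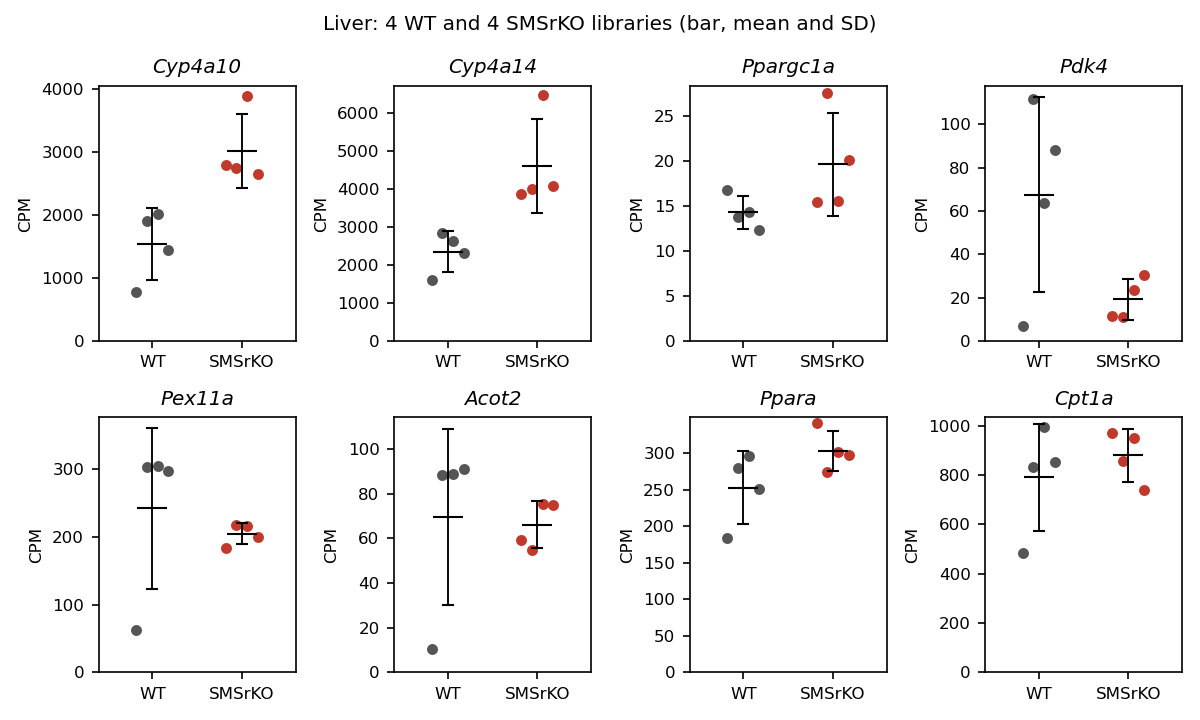
Levels in CPM of 8 member genes in the 4 WT and 4 SMSrKO liver libraries, 1 point per library, with the mean and SD as bars. SMSrKO libraries of Cyp4a10 and Cyp4a14 lie above all WT libraries, and the lowest WT point of Pdk4, Pex11a and Acot2 is WT 1, at 7.09, 63.0 and 10.3 CPM.

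The second comparison asked what loss of both sphingomyelin synthases did in hepatocytes. In libraries labelled dKO the kinase gene Pdk4 and the coactivator gene Ppargc1a rose several-fold, Vnn1, Bdh1 and Cpt1a rose less, and Ppara and both Cyp4a genes fell. Enzymes of the mitochondrial cycle moved by small amounts, mostly upward, and 4 of 5 peroxisomal genes fell. Of 37 members tested, 12 were called higher and 13 lower by edgeR, where 24% of all 11471 tested genes were called higher and 20% lower, or 44% in either direction. The median log2 fold change was 0.01 over the members and −0.01 over all genes, and 7 members were called at a fold of at least 1.5, against 13.6% of all genes. Refitted with the common dispersion found in liver, which is larger, 5 members remained of the 25, Ppargc1a, Vnn1, Pdk4 and Acot3 higher and Acot1 lower, against 9.2% of all genes in either direction, 7.58% higher and 1.62% lower.

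Pdk4 (chromosome 6, 5483351 to 5496309) had the largest change. It measured 63.8, 53.1 and 60.03 CPM in WT 1 to WT 3 and 221, 214.5 and 220.4 CPM in dKO 4 to dKO 6. All dKO libraries lay far above WT, and it rose by 1.89 ± 0.0527 log2, or 3.71-fold (edgeR adjusted p = 1.39e-47). Ppargc1a (chromosome 5, 51454250 to 51567726) measured 3.29, 3.35 and 3.68 CPM in WT and 10.2, 9.57 and 10.03 CPM in dKO. The groups did not overlap, and the gene rose by 1.53 ± 0.176, or 2.88-fold (edgeR adjusted p = 6.9e-12). Ppara itself measured 14.9, 11.9 and 15.1 CPM in WT and 10.5, 10.9 and 8.84 CPM in dKO. It fell by 0.47 ± 0.13 log2 without overlap (edgeR adjusted p = 0.00184), so the receptor and its coactivator moved in opposite directions. Creb3l3 fell by 0.19 ± 0.0734 (edgeR adjusted p = 0.0448), a call that was lost without WT 1, WT 2, WT 3, dKO 6 or tKO 7, at values of −0.08 (without dKO 6) to −0.20.

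Vnn1 measured 24.6, 24.3 and 23.3 CPM in WT and 42.4, 44.2 and 43.7 CPM in dKO. It rose by 0.85 ± 0.0804 log2 with wide separation of the groups (edgeR adjusted p = 1.99e-15). Fgf21 had 2 to 5 counts in WT libraries, 6 to 7 in dKO and 7 to 11 in tKO, too few to be tested. Bdh1, the enzyme that interconverts the 2 main ketone bodies, measured 11.95, 16.5 and 15.3 CPM in WT and 21.8, 23.3 and 22.8 CPM in dKO. It rose by 0.63 ± 0.106 log2 (edgeR adjusted p = 4.8e-07).

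At the entry into mitochondria, the outer and inner carnitine transferases moved apart. Cpt1a (chromosome 19, 3323301 to 3385732) measured 41.7, 39.5 and 44.9 CPM in WT and 58.2, 60.7 and 57.2 CPM in dKO, without overlap. It rose by 0.48 ± 0.0713 log2 (edgeR adjusted p = 1.93e-08). Cpt2 measured 31.6, 32.2 and 30.0 CPM in WT and 25.0, 24.0 and 25.2 CPM in dKO, and fell by 0.34 ± 0.084 (edgeR adjusted p = 0.000541). Acsl1 and Slc25a20 gave −0.01 and −0.18 and did not pass. Of the 8 cycle enzymes, 4 rose and 1 fell. Acadl rose by 0.26, Acadm by 0.21, and the subunits Hadhb and Hadha of the trifunctional protein by 0.17 and 0.14, while Acaa2 fell by 0.18. Hadha and Hadhb lie 0.1 kb apart, and reads at their shared boundary could be counted to either. The call of Hadhb was lost without WT 1, WT 3, dKO 4 or dKO 5 (0.13 to 0.15), and that of Hadha without WT 3 or dKO 5 (0.10 and 0.11). Of the flavoprotein genes, Etfa rose by 0.13 and Etfb fell by 0.23, although their products form 1 complex. The call of Etfa was lost without WT 1, WT 3, dKO 5 or dKO 6 (0.11 to 0.12).

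Peroxisomal genes fell in 4 of 5 cases and by small amounts. Pex11a measured 21.6, 21.7 and 19.2 CPM in WT and 16.7, 19.0 and 16.4 CPM in dKO. Its groups were just apart, and it fell by 0.26 ± 0.104 log2 (edgeR adjusted p = 0.032). Its call was lost without WT 1, WT 2, dKO 4 or dKO 6, at −0.23 to −0.24. Acaa1b fell by 0.22, Hsd17b4 by 0.19 and Ehhadh by 0.17, the last lost without WT 1, WT 3, dKO 5 or dKO 6 (−0.14 to −0.16). The other thiolase copy, Acaa1a, rose by 0.47 ± 0.0656 (edgeR adjusted p = 6.23e-09). As reads can be shared between these copies, their sum is given too, at 189 to 205 CPM in WT and 193 to 204 CPM in dKO. Of the thioesterases, Acot1 fell by 0.87 ± 0.213 and Acot3 rose by 0.89 ± 0.226, both below 10 CPM and within a family of similar genes. The 5 enzymes for unsaturated chains held 1 call, a fall of 0.19 in Eci1 that was lost without WT 3 (−0.15) or dKO 6 (−0.14). Eci2 passed only without dKO 6 (0.21).

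Both omega-hydroxylases fell. Cyp4a10 measured 261, 265 and 264 CPM in WT and 172.5, 174 and 165 CPM in dKO. It fell by 0.63 ± 0.044 log2 with no overlap (edgeR adjusted p = 7.12e-22). Cyp4a14 measured 241, 232 and 239 CPM in WT and 193, 192 and 185.5 CPM in dKO, and fell by 0.32 ± 0.0436 (edgeR adjusted p = 1.95e-09). With the liver dispersion neither of the 2 calls was kept.

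Around the members, 8 of 62 other oxidation and ketogenesis genes rose and 11 fell (median −0.01), where 24% and 20% of all genes did. Acad10 (0.70 ± 0.112), the synthetase Acsl4 (0.45 ± 0.0479) and Acsm3 (0.44 ± 0.146) rose. Acacb, whose product makes the malonyl-CoA that inhibits Cpt1a, fell by 0.42 ± 0.0561, the carnitine acetyltransferase Crat by 0.39 ± 0.104 and Slc27a5, a bile acid and fatty acid CoA ligase, by 0.37 ± 0.0375. Of 45 other PPARα targets and partners 11 rose and 13 fell (median 0.01). The fatty acid uptake gene Cd36 rose by 1.66 ± 0.0914, the lipid droplet gene Hilpda by 1.32 ± 0.0678 and the triglyceride lipase Pnpla2 by 0.55 ± 0.0562. The bile acid enzyme Cyp8b1 fell by 1.68 ± 0.167, Txnip by 0.78 ± 0.0729 and Cyp4f14 by 0.62 ± 0.0568.

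**Figure D3:**
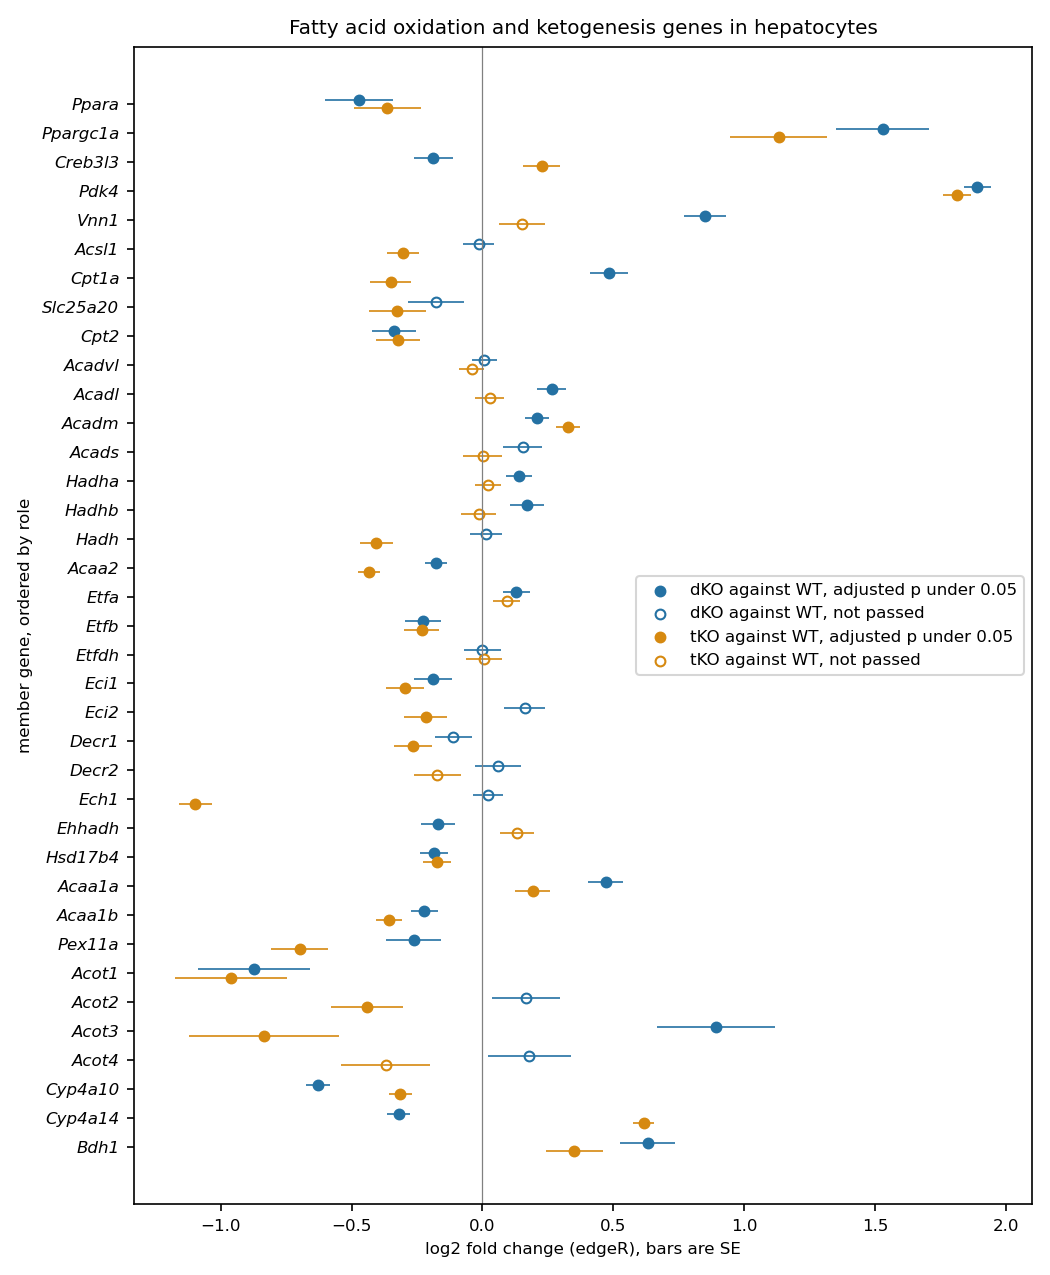
Rows are the 37 member genes tested in hepatocytes, ordered by role, with the log2 fold change against WT for dKO in blue and tKO in orange, SE as bars, and filled points where edgeR's adjusted p was under 0.05. Ppargc1a and Pdk4 lie far to the right in both, Cpt1a and Acot3 lie on opposite sides of 0, and Ech1 is displaced in tKO and not in dKO.

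Hepatocyte markers stood lower in both knockouts, and most endothelial, macrophage and stellate markers tested were higher. The 15 hepatocyte markers summed to 78485 to 80138 CPM in WT, 66634 to 68385 CPM in dKO and 58582 to 61669 CPM in tKO. Of these 15, 9 were called lower and 2 higher in dKO (median −0.19), and 10 lower and 2 higher in tKO (median −0.26). Endothelial markers summed to 37.5 to 43.6, 218 to 235 and 127 to 139 CPM in WT, dKO and tKO, with 14 and 13 of 14 tested called higher in dKO and tKO. Macrophage markers summed to 122 to 138, 327 to 343 and 365 to 383.5 CPM, with all 6 tested genes of 12 higher in both. Most of this sum was Cd68, at 92.9 to 108, 194 to 205 and 237 to 267 CPM. Between tKO and dKO, 1 macrophage marker was called higher and 2 lower (median −0.62). Stellate markers summed to 16.5 to 20.7, 60.3 to 65.4 and 36.1 to 40.8 CPM, with 5 of 6 tested higher in both knockouts. Cholangiocyte markers summed to 297 to 304, 412.5 to 428 and 282 to 298.5 CPM, and of 5 tested 1 was higher and 2 lower in dKO (median −0.11) and 1 higher and 3 lower in tKO (median −0.50). In such samples fewer hepatocytes and less RNA per hepatocyte cannot be told apart, and the marker sums measure neither. Genes of the fasting and insulin response, 12 tested, were called higher and lower in 7 and 2 cases in dKO and in 7 and 4 in tKO, and genes of the integrated stress response, 12 tested, in 10 and 0 and in 8 and 3. Acute phase genes, 17 tested, were called higher and lower in 12 and 4 cases in dKO and in 9 and 7 in tKO. For circadian genes, 16 tested, these counts were 8 and 3 in dKO and 5 and 2 in tKO. Of all genes, 24% were called higher and 20% lower in dKO, and 25.6% and 21.8% in tKO. The part of these lists in the member values was not tested.

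The third comparison asked what loss of all 3 enzymes did, against the same 3 WT libraries. In libraries labelled tKO the rise of Pdk4 and Ppargc1a was present again, but all 4 genes of mitochondrial entry fell, Ech1 fell by more than 2-fold, and Cyp4a14 rose. Of 37 members tested, 7 were called higher and 19 lower by edgeR, where 25.6% of all tested genes were called higher and 21.8% lower, or 47.4% in either direction. The median log2 fold change was −0.22 over the members and 0.00 over all genes. At a fold of at least 1.5, 7 members were called, against 15.2% of all genes. With the liver dispersion 4 remained, Ppargc1a and Pdk4 higher and Ech1 and Acot1 lower, against 10.6% of all genes in either direction, 7.65% higher and 3% lower.

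Pdk4 measured 206, 203 and 212 CPM in tKO 7 to tKO 9, all above the WT range of 53.1 to 63.8 CPM. It rose by 1.81 ± 0.0528 log2, or 3.51-fold (edgeR adjusted p = 2.02e-46). Ppargc1a measured 8.77, 7.18 and 6.71 CPM in tKO and rose by 1.13 ± 0.184 (edgeR adjusted p = 2.15e-07). Ppara measured 10.01, 10.8 and 11.7 CPM in tKO, just under the lowest WT library. It fell by 0.36 ± 0.127 (edgeR adjusted p = 0.0142), and without WT 1, WT 3 or tKO 7 the call was lost at −0.31 in each case. Creb3l3 rose by 0.23 ± 0.0708 (edgeR adjusted p = 0.0121), lost without WT 2 at 0.21, and Vnn1, at 25.0, 29.3 and 25.8 CPM, did not pass (0.15 ± 0.0866, edgeR adjusted p = 0.148).

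All 4 genes of mitochondrial entry fell by similar amounts. Cpt1a measured 30.7, 37.8 and 30.3 CPM in tKO, below the lowest WT library at 39.5 CPM, and fell by 0.35 ± 0.0774 log2 (edgeR adjusted p = 9.18e-05). Slc25a20 fell by 0.33 ± 0.109, a call lost without WT 2 (−0.29) or WT 3 (−0.26), Cpt2 by 0.32 ± 0.0832 and Acsl1 by 0.30 ± 0.0613. In the mitochondrial cycle the dehydrogenases for very long, long and short chains and both trifunctional subunits lay between −0.04 and 0.03 and did not pass. Acadm, the dehydrogenase for medium chains, measured 153, 156 and 149 CPM in WT and 204, 188 and 182.5 CPM in tKO. It stood higher in all 3 tKO libraries and rose by 0.33 ± 0.0464 (edgeR adjusted p = 5.87e-09). Hadh and Acaa2 fell. Hadh, the dehydrogenase for short hydroxyacyl chains, measured 70.9, 82.1 and 81.8 CPM in WT and 62.9, 61.2 and 53.3 CPM in tKO and fell by 0.41 ± 0.0629 (edgeR adjusted p = 6.9e-08). Acaa2 measured 274, 299 and 283 CPM in WT and 214, 214 and 206.5 CPM in tKO and fell by 0.43 ± 0.0424 (edgeR adjusted p = 9.64e-15). Neither gene's groups overlapped.

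Ech1 (chromosome 7, 28825217 to 28832247), which encodes a dienoyl-CoA isomerase for unsaturated fatty acids, had the largest fall of any member. It measured 78.2, 85.4 and 81.4 CPM in WT, 81.3, 85.9 and 81.6 CPM in dKO and 40.2, 38.1 and 36.3 CPM in tKO. WT and dKO libraries were intermixed and the tKO libraries lay far below both. Against WT it fell by 1.10 ± 0.064 log2, or 2.14-fold (edgeR adjusted p = 1.92e-26). Of the other 4 genes for unsaturated chains, Eci1 fell by 0.30, Decr1 by 0.27 and Eci2 by 0.22, and Decr2 did not pass at −0.17. Without tKO 7 Decr2 passed at −0.27, and the call of Eci2 was lost without WT 2, WT 3 or tKO 9 (−0.18 to −0.21).

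Pex11a measured 11.2, 13.8 and 13.4 CPM in tKO, below the WT range of 19.2 to 21.7 CPM, and fell by 0.70 ± 0.109 log2 (edgeR adjusted p = 6.87e-08). Acaa1b fell by 0.36 and Hsd17b4 by 0.18, Acaa1a rose by 0.19, and Ehhadh did not pass at 0.13. Without tKO 8 Acaa1a was at 0.08 and without WT 1 at 0.15, both not called, and Ehhadh passed without tKO 9 (0.17). The summed thiolase copies stood at 165 to 190 CPM in tKO against 189 to 205 CPM in WT. Of the thioesterases 3 were called lower. Acot2, the mitochondrial one, measured 10.6, 13.6 and 10.8 CPM in WT and 7.43, 9.36 and 9.05 CPM in tKO and fell by 0.44 ± 0.138 (edgeR adjusted p = 0.00576), a call lost without WT 2 (−0.32) or tKO 7 (−0.35). Acot1 fell by 0.96 ± 0.213 with 1 tKO library inside the WT range, and Acot3 by 0.83 ± 0.286, the latter lost without WT 2 (−0.69) or tKO 9 (−0.56). The sum of all 4 was 25.0 to 30.3 CPM in WT and 18.5 to 19.3 CPM in tKO with no overlap.

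The 2 omega-hydroxylases parted. Cyp4a14 measured 384, 352 and 355 CPM in tKO, all above the WT range of 232 to 241 CPM, and rose by 0.62 ± 0.0416 log2 (edgeR adjusted p = 8.72e-23). Cyp4a10 measured 224, 207 and 205 CPM, all below the WT range of 261 to 265 CPM. It fell by 0.31 ± 0.043 (edgeR adjusted p = 2.02e-09). Summed with Cyp4a31 and Cyp4a32 it was 216 to 233 CPM in tKO and 274.5 to 277 CPM in WT. Bdh1 measured 19.0, 19.8 and 17.1 CPM in tKO and rose by 0.35 ± 0.109 (edgeR adjusted p = 0.00534), a call lost without WT 1 at 0.23. Of 15 female-biased genes tested, which include Acot3, Cyp4a10 and Cyp4a14, 2 were called higher and 13 lower in tKO (median −2.07). In dKO 5 were higher and 8 lower (median −0.32). Of 13 male-biased genes tested, 4 were higher and 6 lower in tKO (median −0.10). In dKO 4 were higher and 7 lower (median −0.41). Against dKO, 3 female-biased genes were higher and 11 lower in tKO (median −1.87). For male-biased genes these counts were 8 and 2 (median 0.81). Among all genes 25.6% were called higher and 21.8% lower in tKO, and 24% and 20% in dKO. Between tKO and dKO they were 14.3% and 15.2%. The sex of the mice is not given here. The part of these lists in the member values was not tested.

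Of 62 other oxidation and ketogenesis genes 7 rose and 19 fell (median −0.06), where 25.6% and 21.8% of all genes did. Acat2 rose by 0.49 ± 0.0672, Acsm5 by 0.44 ± 0.133 and Acsl4 by 0.41 ± 0.0478. Hacl1, the lyase of peroxisomal alpha-oxidation, fell by 0.93 ± 0.0671, and the acyl-CoA synthetases Slc27a2 and Slc27a5 by 0.77 ± 0.047 and 0.70 ± 0.038. Of 45 other PPARα targets and partners 9 rose and 14 fell (median −0.09). Cd36 rose by 1.82 ± 0.0894, Hilpda by 1.03 ± 0.0692 and Txnip by 0.79 ± 0.0623, while Cyp8b1 fell by 2.46 ± 0.184, the monoglyceride lipase Mgll by 1.06 ± 0.103 and the kinase Pdk1 by 0.99 ± 0.0558. Pdk1 and Pdk4 encode kinases of the same enzyme, and they moved in opposite directions.

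**Figure D4:**
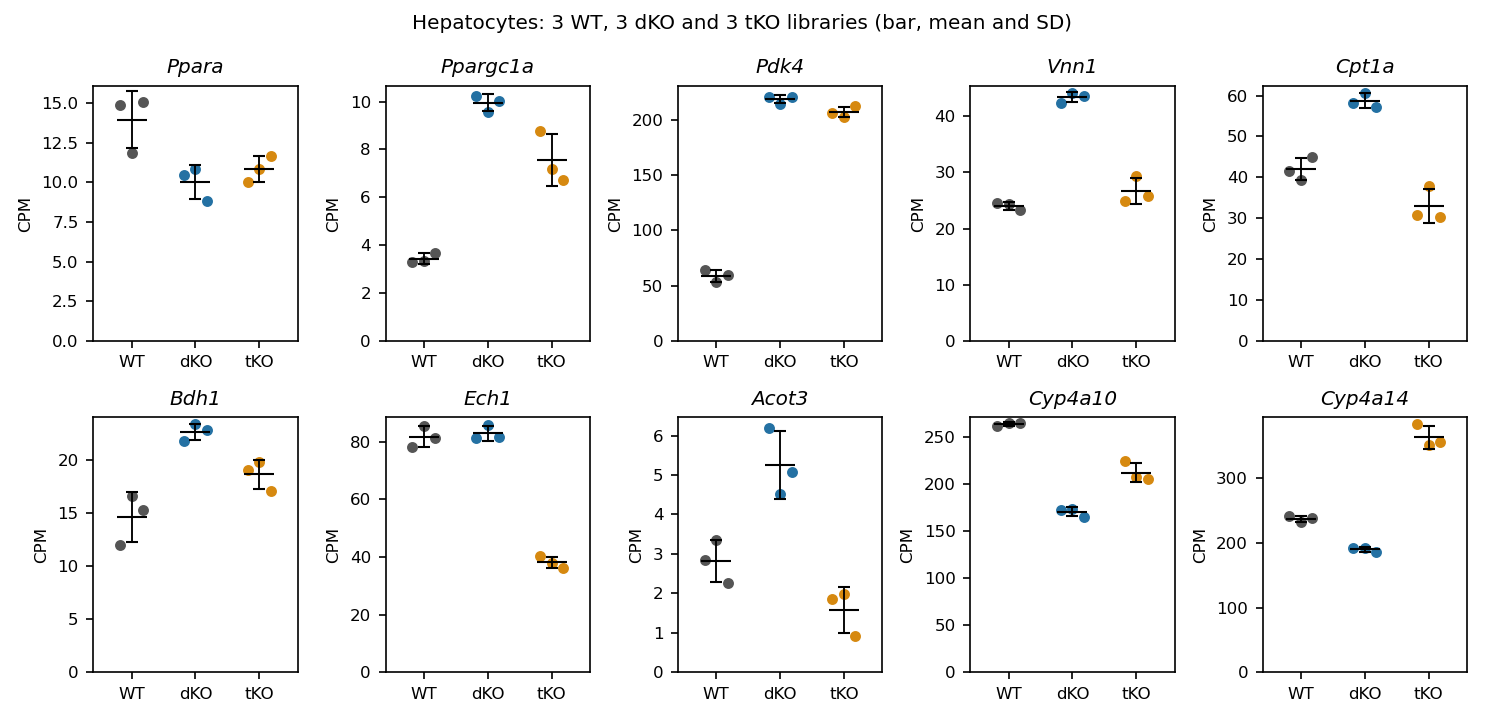
Levels in CPM of 10 member genes in 3 WT, 3 dKO and 3 tKO hepatocyte libraries, 1 point per library, with the mean and SD as bars. Pdk4 and Ppargc1a are higher than WT in both knockouts, Vnn1, Cpt1a and Acot3 are highest in dKO, and Ech1 is lowest and Cyp4a14 highest in tKO.

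The direct comparison of tKO with dKO asked what the added loss of SMSr changed, and it also tests whether the differences of tKO and dKO from their shared WT libraries differ. Most of the members called were lower in tKO, among them Ech1, Cpt1a and Vnn1, and both omega-hydroxylases were higher. Of 37 members, 5 were called higher and 18 lower by edgeR, where 14.3% of all tested genes were higher and 15.2% lower, or 29.5% in either direction. The median log2 fold change was −0.15 over the members and 0.00 over all genes, and 6 members were called at a fold of at least 1.5, against 7.26% of all genes. With the liver dispersion 4 remained, Cyp4a14 higher and Cpt1a, Ech1 and Acot3 lower, against 2.84% of all genes in either direction, 0.959% higher and 1.88% lower.

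Ech1 was lower in tKO by 1.12 ± 0.0637 log2 (edgeR adjusted p = 1.61e-26). Cpt1a, raised in dKO and lowered in tKO against WT, differed between them by −0.83 ± 0.0735, or 1.78-fold (edgeR adjusted p = 1.97e-16). Its 3 dKO libraries, at 57.2 to 60.7 CPM, all lay above its 3 tKO libraries, at 30.3 to 37.8 CPM. Acot3 showed the same reversal at low level, with 4.51 to 6.19 CPM in dKO and 0.915 to 1.98 CPM in tKO (−1.73 ± 0.252, edgeR adjusted p = 2.91e-08). Vnn1 was lower in tKO by −0.70 ± 0.0781 (edgeR adjusted p = 4.26e-12), with tKO at 25.0 to 29.3 CPM against 23.3 to 24.6 CPM in WT. Acot2 was lower by −0.61 ± 0.135 and Acot4 by −0.55 ± 0.165, the latter at 7.33 to 8.28 CPM in dKO and 4.99 to 5.90 CPM in tKO (edgeR adjusted p = 0.000209 and 0.00716).

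In all, 5 members were higher in tKO than in dKO. Cyp4a14 stood at 186 to 193 CPM in dKO and 352 to 384 CPM in tKO (0.94 ± 0.0424, edgeR adjusted p = 9.02e-33), and Cyp4a10 at 165 to 174 and 205 to 224 CPM (0.32 ± 0.0445, edgeR adjusted p = 1.19e-08). Creb3l3 measured 114, 111 and 88.8 CPM in dKO and 132, 152 and 134 CPM in tKO, without overlap (0.41 ± 0.0718, edgeR adjusted p = 0.00013). Ehhadh measured 57.0, 51.0 and 50.9 CPM in dKO and 64.5, 69.6 and 61.8 CPM in tKO, also without overlap (0.30 ± 0.0643, edgeR adjusted p = 0.00011). Acadm was higher by 0.12 ± 0.0457 (edgeR adjusted p = 0.04), a call lost without any 1 of dKO 4, dKO 5, dKO 6 or tKO 7 (0.07 to 0.13). Pdk4 did not pass between tKO and dKO (−0.08 ± 0.0451, edgeR adjusted p = 0.192), nor did Ppara (0.11 ± 0.135, edgeR adjusted p = 0.59), while Ppargc1a was lower in tKO (−0.40 ± 0.15, edgeR adjusted p = 0.0362), a call lost without dKO 4, dKO 5, dKO 6, tKO 8 or tKO 9 (−0.32 to −0.42).

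Over the 3 hepatocyte contrasts the 37 members fell into 15 combinations of calls. The share of all genes in each combination was not counted, so these counts describe the members alone. Of all genes, 44% were called in dKO against WT, 47.4% in tKO against the same WT libraries and 29.5% between tKO and dKO. Lower in both knockouts with no call between them was the most frequent, with 6 members, Ppara, Cpt2, Etfb, Eci1, Hsd17b4 and Acot1. Lower in tKO against both other groups with no call in dKO held 5, Acsl1, Hadh, Eci2, Ech1 and Acot2. Acaa2, Acaa1b and Pex11a were called lower in every contrast, and Acadm higher in every contrast. Between tKO and dKO the call of Acaa1b (−0.135) was lost without dKO 4 (−0.115), dKO 5 (−0.106), tKO 7 (−0.137) or tKO 9 (−0.099), and those of Pex11a in dKO and of Acadm between tKO and dKO were also lost without single libraries. Opposite calls in dKO and tKO against WT were seen in 4 members, Cpt1a and Acot3 (higher in dKO, lower in tKO) and Creb3l3 and Cyp4a14 (lower in dKO, higher in tKO). Acadvl, Acads and Etfdh had no call in any contrast. The 95% interval of the tKO to WT log2 fold change was −0.14 to 0.05 for Acadvl, −0.145 to 0.146 for Acads and −0.13 to 0.14 for Etfdh.

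Of 62 other oxidation and ketogenesis genes 7 were higher and 19 lower in tKO than in dKO (median −0.06), against 14.3% and 15.2% of all genes. Acacb was higher by 0.69 ± 0.0546, opposite to Cpt1a, the enzyme that its product inhibits. Acsm5 (0.55 ± 0.135) and the thioesterase Acot9 (0.35 ± 0.0572) were higher too, and Acsm3 (−0.94 ± 0.154), Acad10 (−0.86 ± 0.113) and Slc27a2 (−0.74 ± 0.047) lower. Of 45 other PPARα targets and partners 5 were higher and 16 lower (median −0.05). Txnip was higher by 1.57 ± 0.0677, the PPARα partner Rxra by 0.26 ± 0.0529 and the related receptor Ppard by 0.22 ± 0.0696. Angptl4, a lipoprotein lipase inhibitor, was lower by −0.94 ± 0.0506, Cyp8b1 by −0.79 ± 0.227 and Mgll by −0.74 ± 0.107.

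Set side by side, each against its own WT, the SMSrKO liver and the tKO hepatocytes gave opposite signs for Pdk4 and Cyp4a10. These were separate experiments with different spreads, the hepatocyte donors being on no stated diet. Pdk4 had a log2 fold change of −1.81 ± 0.741 in liver and 1.81 ± 0.0528 in tKO hepatocytes, and Cyp4a10 of 0.98 ± 0.278 and −0.31 ± 0.043. Cyp4a14 was above WT in both, by 0.97 ± 0.226 and 0.62 ± 0.0416. None of the 3 passed edgeR in liver (adjusted p = 0.361, 0.192 and 0.125 in that order). The tKO and dKO hepatocytes differ by label in SMSr alone, and between them these 3 genes had the signs seen in liver. Cyp4a10 was at 0.32 ± 0.0445, Cyp4a14 at 0.94 ± 0.0424 and Pdk4 at −0.08 ± 0.0451, the last of which did not pass. The members as a whole did not share this. In liver 34 of 38 stood above 0 (24 without WT 1), and between tKO and dKO 9 of 37 did. The differences between the 2 experiments were not tested.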

How the data were processed

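RNA was sequenced from 8 liver and 9 hepatocyte libraries, grouped by their labels. For liver, whole-number counts per gene were deposited with gene positions per the file headers, and a TPM table was deposited by the authors. Hepatocyte files, as deposited, gave expected counts, rounded here to whole numbers, and FPKM values, and genes that a file leaves out were set to 0. The submitters' processing notes name the builds GRCm38 and mm10, DESeq2 1.30.1, Bowtie2 2.2.5, STAR 2.5.2b and Trimmomatic 0.36. Counter and strand setting were not given in the sources used here. Overlapping, antisense and near-identical genes are therefore uncertain.

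Each experiment was fitted over all its genes and libraries with edgeR 4.0.16 (R 4.3.3, limma 3.58.1): filterByExpr with a minimum count of 10, TMM scaling, the robust quasi-likelihood F test and Benjamini-Hochberg adjustment over every gene tested (threshold 0.05). SE was taken as |log2 fold change|/√F. CPM uses TMM-scaled totals, and sums over lists are simple sums of CPM. In simulated data 32.8%, 70.1% and 92.4% of genes changed 1.5-fold, 2-fold and 4-fold were recovered for SMSrKO against WT liver (15820 genes), and 83.6%, 94.0% and 98.5% for dKO against WT hepatocytes (11471 genes). The simulation drew each gene independently at a dispersion set by its mean level, with few genes changed. It held no library like WT 1, so these shares are not the recovery for the members. Alternatives were DESeq2 1.42.0, other scalings, no filter, limma on log2(TPM + 1), the common dispersion of the liver libraries, fits of only the 2 groups compared, a fold of at least 1.5, and leaving out each library. Tables and figures used matplotlib 3.10.9, numpy 2.4.6 and pandas 2.3.3 in Python 3.11.15.

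All 38 members are accounted for. Given in full were 7 regulators and key enzymes (Ppara, Ppargc1a, Cpt1a, Fgf21, Pdk4, Cyp4a10, Cyp4a14), up to 5 called members with the largest fold in each direction and contrast at a mean of at least 5 CPM, the 5 with the smallest p where none was called, and up to 3 genes per direction of each pathway list. Other genes shown in full were picked after their values were seen. The members, the 16 gene lists and the tests were chosen with earlier results of these data known.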

Additional observations from a re-analysis of the deposited data

Results flagged for a closer look

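Among the 76 groups of 4 liver libraries tested (38 genes in WT and in SMSrKO), 6 held a library whose gap to its nearest neighbour took up more of the group's range than Dixon's 95% critical value for 4 samples allows, where chance gives about 1 in 20 groups. WT 1 was the low library in 3 of the 6. Acot2 was at 10.3 CPM there against 88.3 to 91.1 CPM in the other WT libraries, Pex11a at 63.0 against 297 to 305 CPM, and Creb3l3 at 273 against 365 to 382 CPM. SMSrKO 7 was the high library for both neighbouring omega-hydroxylase genes. Cyp4a14 was at 6467 CPM there against 3864 to 4066 CPM in the other SMSrKO libraries, and Cyp4a10 at 3886 against 2641 to 2788 CPM. Without SMSrKO 7 the log2 fold change was 0.76 for Cyp4a14 and 0.83 for Cyp4a10, against 0.97 and 0.98 with it. Acaa2 was at 943 CPM in WT 3 against 724 to 744 CPM in the other WT libraries. Groups of 3 hepatocyte libraries were too small for this rule.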

How the results depend on the processing

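No paired analysis was possible because the groups compared share no replicate number. In liver 0 members were called in 12 of 14 alternatives; DESeq2 called 2 (both higher), and leaving out single libraries gave 0 to 1. In hepatocytes, leaving out single libraries gave 19 to 25 calls for dKO against WT (25 with all), 21 to 26 for tKO against WT (26) and 17 to 23 for tKO against dKO (23). The liver dispersion gave 5, 4 and 4 calls in that order and a fold of at least 1.5 gave 7, 7 and 6, as both rules ask for more than the main test. The remaining hepatocyte alternatives stayed within 1.5 times of the first counts, and no member called by the main test changed sign in any alternative. In every alternative, 5 of 25, 4 of 26 and 4 of 23 calls were kept, and 18, 18 and 17 without each library. Depth kept Fgf21 from being tested in hepatocytes, and in liver the spread between libraries limits what 4 against 4 can show. In the liver simulation, which held no library like WT 1, 32.8% of 1.5-fold changes were found.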

Other observations

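Members of the Cyp4a family outside the gene set also moved in hepatocytes. Cyp4a12b, a male-biased omega-hydroxylase, had 0 counts in the 3 WT libraries, 0 to 1 in dKO and 22 to 25 in tKO. Its near-identical copy Cyp4a12a had 6, 13 and 9 counts in WT, 11, 7 and 5 in dKO and 41, 33 and 37 in tKO, so the tKO libraries lay above all others for both genes. In liver, the erythroid markers summed to 45.2 to 163 CPM in WT and 40.3 to 45.6 CPM in SMSrKO, and the circadian genes to 1054 to 1204 CPM in WT and 1331 to 1475 CPM in SMSrKO, beside the same libraries in which the Cyp4a genes stood higher.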
